A study of Drosophila melanogaster with 4 samples.

Results

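Storage lipid genes were examined in *Drosophila melanogaster* embryos that lacked the RNA-binding protein HOW (held out wings), a STAR-family regulator of mRNA stability and splicing. The set comprised 8 genes of lipid synthesis, storage and transport, *mdy*, *apolpp*, *Lsd-2*, *bmm*, *ACC*, *FASN1*, *Desat1* and *SREBP*, which were 8 of the 10800 genes named on the array and were represented by 11 of its 13966 gene probe sets. All probe sets annotated to these genes are reported. The set was built around *mdy*, chosen by its signals, which were higher in the mutant for both of its probe sets. The other genes were listed by name, with results of the same comparison known. The mutant against wild-type values of the 8 genes are therefore given as a description, without a test.

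Whole embryos, collected at 25 °C and 3 to 5 h old, were compared on 4 one-colour Affymetrix arrays. The 2 wild-type arrays carried RNA of the yw stock, and the 2 mutant arrays carried RNA of embryos from *how* germline-clone mothers, so that both the maternal and the zygotic supply of HOW was missing. Homozygous mutants were picked under a fluorescence microscope with the help of a GFP balancer. Each array received pooled RNA of 5 preparations, each of about 100 embryos, so the spread between single preparations was not measured, and the labels describe the repeats as independent samples. The controls were the yw stock, so effects of the *how* genotype and of stock background cannot be told apart. No probe set was named *how* here, so the signals give no check of the genotype. Signals are MAS5 values on a linear scale in arbitrary units, with a common trimmed mean on every array and medians between 75.5 and 82.1. The arrays' number limits the precision: an exact two-sided permutation test of 2 against 2 cannot go below p = 0.333.

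Insect embryos develop on lipid that the mother packs into the egg. The last step of triacylglycerol synthesis is carried out by diacylglycerol O-acyltransferases such as Mdy (midway, the fly DGAT1), and the product is kept in droplets coated by perilipins such as Lsd-2. The lipase Brummer (bmm) releases fatty acids from the droplets, and lipophorin, whose protein part is made from *apolpp*, carries lipid between tissues.

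The triacylglycerol synthesis gene *mdy* and the droplet gene *Lsd-2* gave higher signals on both mutant arrays than on both wild-type arrays. For *mdy*, which lies on chromosome arm 2L, probe set 154661_at read 438 and 336 on the wild-type arrays against 865 and 809.5 on the mutant arrays. The means were 387 ± 72.2 and 837 ± 39.5 (SD, n = 2), a log2 change of 1.13 ± 0.17 (limma's SE), or 2.18-fold. The second *mdy* probe set, 146381_at, read 68.1 and 73.4 on the wild-type arrays, and in the mutant 189.7 and 203. Neither probe set had overlapping groups, and the lower mutant array lay 1.85-fold and 2.58-fold above the higher wild-type array. The second probe set, with means of 70.8 ± 3.70 and 196.5 ± 9.67 (SD, n = 2), changed by 1.47 ± 0.25 (SE), or 2.78-fold. Its signal was dimmer, and with 50 added to every signal the folds of the 2 probe sets were both 2.04.

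*Lsd-2*, on the X chromosome, encodes a perilipin that limits the access of lipases to the droplet. Its probe set read 110.3 and 103 on the wild-type arrays against 339 and 327 on the mutant arrays. This was the widest separation among the 11 probe sets, with the nearest arrays 2.96-fold apart and replicates of a group within 1.07-fold. The means were 107 ± 5.20 and 333 ± 9.02 (SD, n = 2). The log2 change was 1.64 ± 0.20 (SE), and the fold of 3.12 was 2.45 with 50 added.

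*bmm*, on 3L, encodes the droplet lipase and went the other way. Its signals were 371 and 425 on the wild-type arrays, and in the mutant 327 and 249. Both mutant arrays lay below both wild-type arrays, but the nearest arrays were only 1.13-fold apart, less than the 1.31-fold between the mutant arrays. Means were 398 ± 38.3 and 288 ± 55.0 (SD, n = 2), and the log2 change was -0.48 ± 0.19 (SE).

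**Figure D1:**
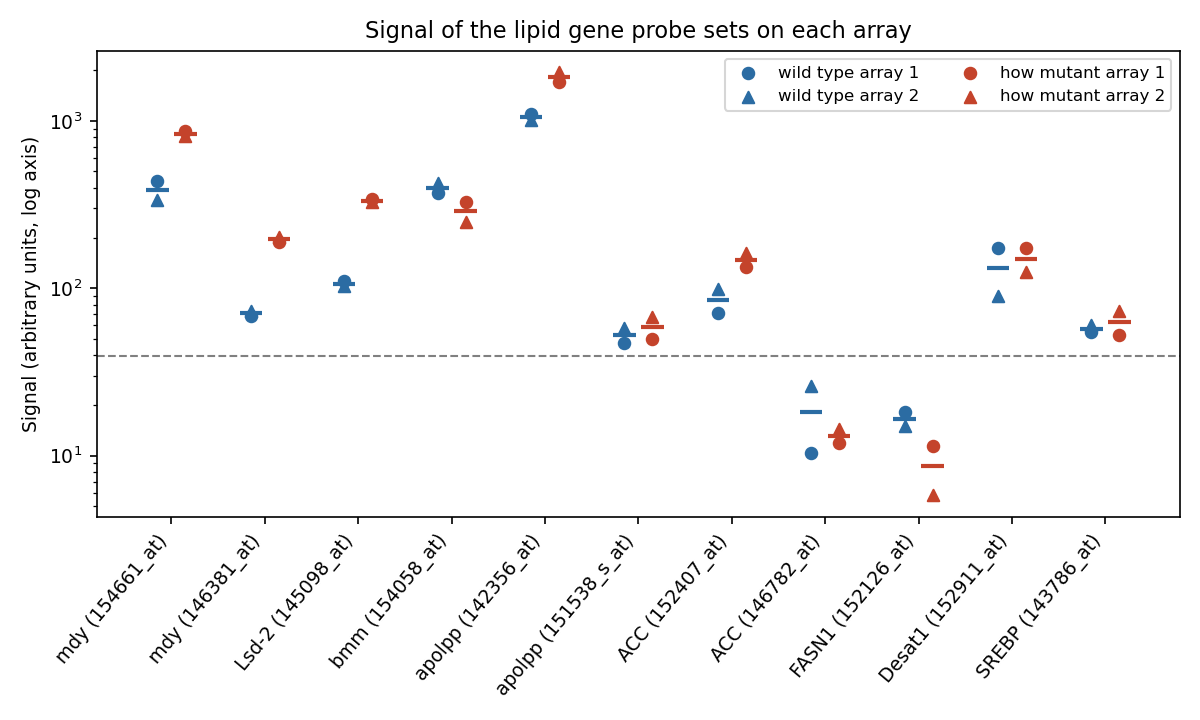
Signal of each of the 11 probe sets (x axis) on each array, in arbitrary units on a log axis; circles are arrays numbered 1, triangles arrays numbered 2, short bars the group means, and the dashed line marks 39.5, the mean below which a probe set was not tested. Both *mdy* probe sets, *Lsd-2*, apolpp 142356_at and ACC 152407_at had both mutant arrays above both wild-type arrays, and ACC 146782_at and *FASN1* lay below the line on all arrays.

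*apolpp*, on chromosome 4, encodes the precursor of both apolipophorins of the main haemolymph lipoprotein. Probe set 142356_at read 1096 and 1009.6 on the wild-type arrays against 1711 and 1961 on the mutant arrays, with means of 1053 ± 60.9 and 1836 ± 177 (SD, n = 2). The groups did not overlap, the nearest arrays were 1.56-fold apart, and the log2 change was 0.80 ± 0.14 (SE), or 1.74-fold. The other *apolpp* probe set, 151538_s_at, read 46.9 and 58.3 on the wild-type arrays, and in the mutant 49.7 and 67.3. Here the groups overlapped, with a log2 change of 0.15 ± 0.40 (SE). This probe set was close to the limit for dim signals, its error was wider than that of the first, and the difference between the 2 was not tested.

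Among genes of fatty acid synthesis, *ACC*, which encodes acetyl-CoA carboxylase, the enzyme that supplies malonyl-CoA, had 1 measurable probe set. It read 70.8 and 99.1 on the wild-type arrays against 135 and 162 on the mutant arrays (152407_at). The groups did not overlap, but the nearest arrays were 1.36-fold apart, while the wild-type arrays themselves differed 1.40-fold. With means of 85.0 ± 20.0 and 148 ± 19.2 (SD, n = 2), the log2 change was 0.82 ± 0.29 (SE). The other *ACC* probe set, 146782_at, was dim, with 10.4 and 26.0 on the wild-type arrays, and in the mutant 11.9 and 14.4, and its groups overlapped.

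*FASN1* encodes the main fatty acid synthase of the fly, and its probe set was dim on all 4 arrays. The signals were 18.3 and 15.02 on the wild-type arrays against 11.5 and 5.80 on the mutant arrays. The mutant arrays lay below the wild-type arrays, but the 2.03-fold difference became 1.14-fold with 50 added, so no level or change of *FASN1* was resolved.

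*Desat1*, on 3R, encodes the delta-9 desaturase that makes monounsaturated fatty acids. It read 174 and 89.4 on the wild-type arrays, and in the mutant 175 and 126. The wild-type arrays differed 1.94-fold from each other, more than the 1.19-fold between the groups, and the groups overlapped. *SREBP*, on 3L, encodes the membrane-bound transcription factor of lipid synthesis genes. It read 55.1 and 59.97 on the wild-type arrays against 52.4 and 72.8 on the mutant arrays, again with overlap, and the log2 change was 0.10 ± 0.38 (SE).

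Counted over all 11 probe sets, 5 had both mutant arrays above both wild-type arrays, 2 had both below and 4 overlapped. Among all 13966 the shares were 21.5% above and 20.4% below. The 5 include both *mdy* probe sets, which were chosen because they were higher in the mutant, so no excess can be read from this count. The median log2 change of the 11 was 0.25, compared with 0.00 over the 8380 probe sets tested, and moved to 0.58 without wild-type array 1. These are medians of unlike sets, because the 11 hold the chosen *mdy* probe sets and also dim ones that the 8380 leave out. Of the 11, 9 passed the filter on dim signals.

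**Figure D2:**
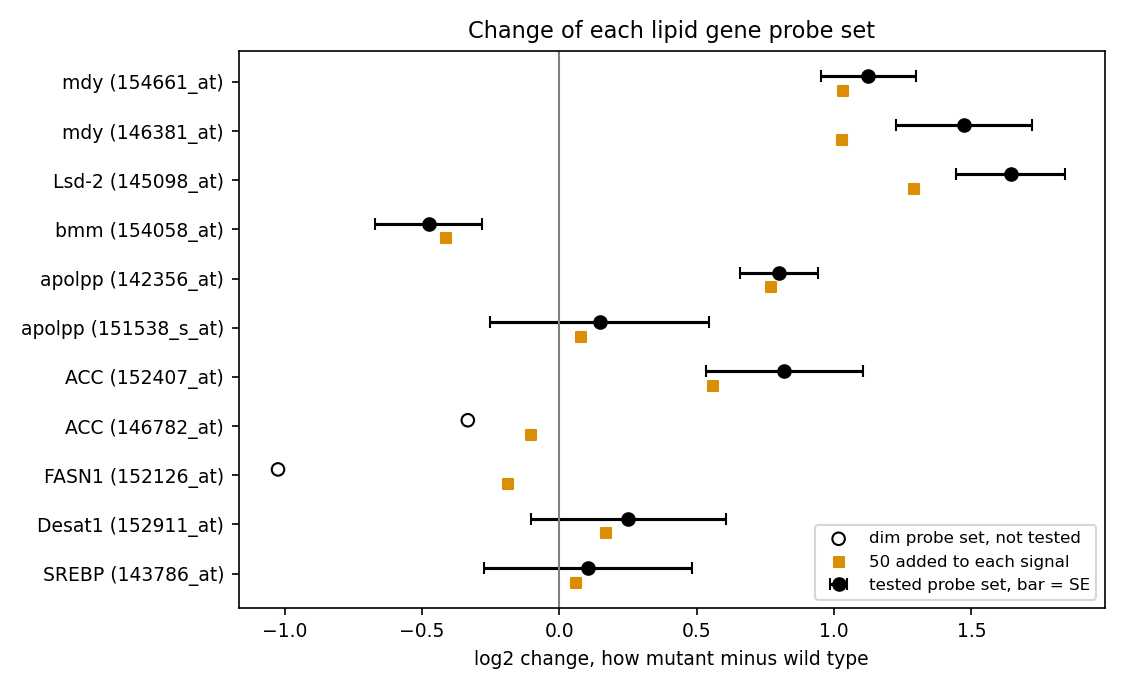
Log2 change (x axis, mutant minus wild type) of the 11 probe sets; filled circles are tested probe sets with limma's SE as bars, open circles are dim probe sets that were not tested, and squares are the change with 50 added to each signal. *Lsd-2* at 1.64 and *mdy* at 1.13 and 1.47 stood farthest above 0, and the open circle of *FASN1* moved from -1.02 to -0.19 with 50 added.

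The profile over the 4 arrays that lay nearest to the brighter *mdy* probe set was sought among 5928 tested genes with a single probe set, by Euclidean distance between log2 signals centred on their own mean. The nearest were *Fkbp59*, an immunophilin gene (distance 0.08, log2 change 1.10), the arginine methyltransferase gene *Art1* (0.08, 1.15), *MFS12*, a predicted transporter gene (0.10, 1.12), *Roe1*, which encodes a mitochondrial co-chaperone (0.12, 1.10), and *fog*, a gene for a secreted inducer of apical cell constriction (0.15, 1.01). Among the lipid genes, 142356_at of *apolpp* lay at 0.43, with 156 tested probe sets nearer than it. *Lsd-2* lay at 0.56, with 313 nearer, and the second *mdy* probe set at 0.51, with 257 nearer. With 4 arrays many profiles look alike: 483 tested probe sets had a Pearson r over 0.95 to this profile.

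The wider pathway was read from lists drawn up by role, without the 8 genes. Of 122 listed genes 99 had a named probe set and 76 passed the filter, and 1 rose and 3 fell by limma (17 had an unadjusted p under 0.05), with p-values adjusted over all 8380 probe sets by Benjamini-Hochberg. Over all 6835 genes tested, 1.84% rose and 1.38% fell, and of all 8380 probe sets 3.04% changed in either direction. Of these 8380, 1346 had an unadjusted p under 0.05 by limma, which is the background for such counts here and in each list below. The median log2 change of the 76 was 0.10, and 44 were above 0. The genes that passed were an elongase gene and 3 genes of membrane lipids, and no gene of triacylglycerol synthesis, droplets, lipoproteins or fatty acid oxidation passed.

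In triacylglycerol synthesis 0 of 9 tested genes passed limma's test, and 3 had an unadjusted p under 0.05. The closest were *mino*, a glycerol-3-phosphate acyltransferase gene of the first step, at 0.57 ± 0.18, and *Agpat2*, of the second acylation, at 1.23 ± 0.40 (SE; limma adjusted p = 0.18 for both). *Agpat2* read 45.0 and 30.9 on the wild-type arrays, and in the mutant 95.6 and 79.7. *Dgat2*, whose product catalyses the same reaction as Mdy, had overlapping groups, with 159 and 143 on the wild-type arrays against 137 and 164 on the mutant arrays. Among 7 tested droplet and lipase genes 0 passed in limma and 1 had an unadjusted p under 0.05, with the lipase gene *Lip4* at 0.48 ± 0.15 and *Seipin*, whose product acts in droplet formation, at 0.43 ± 0.22 (SE). The other perilipin gene, *Lsd-1*, was close to the filter limit and its groups overlapped, at 34.6 and 53.2 on the wild-type arrays, and in the mutant 59.0 and 36.5. *Dgat2*, for the reaction shared with Mdy, and *Lsd-1*, as the other perilipin gene, were named after their values were seen. So was *Lpin*, the gene of the phosphatidate phosphatase that makes diacylglycerol, which was too dim over all arrays to be tested. It read 88.3 and 80.1 on the wild-type arrays, and in the mutant 34.1 and 9.23.

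Of 7 tested genes of lipoproteins and lipid uptake, 0 passed in limma and 2 had an unadjusted p under 0.05. *Npc1a*, a sterol transport gene, stood at 0.51 ± 0.18 and the lipocalin gene *GLaz* at -0.59 ± 0.24 (SE). The genes of both lipophorin receptors, *LpR1* and *LpR2*, were too dim to be tested and are given because their products bind that of *apolpp*, a choice made after their values were seen. The brightest *LpR1* probe set read 12.05 and 11.4 on the wild-type arrays against 61.5 and 39.7 on the mutant arrays. A second one of *LpR1* read 11.8 and 3.29 against 39.4 and 21.6, and the third overlapped. For *LpR2* 1 probe set read 3.40 and 2.29 against 25.8 and 30.01, and the other overlapped. All wild-type signals of both receptor genes were below 39.5, so no fold is given.

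In fatty acid synthesis 0 of 5 tested genes passed in limma, with 2 at an unadjusted p under 0.05. *Men*, the malic enzyme gene, which supplies NADPH, stood at 0.76 ± 0.19 (SE; limma adjusted p = 0.0977) and the NADP-dependent isocitrate dehydrogenase gene *Idh* at -1.24 ± 0.37 (SE; limma adjusted p = 0.152). Among 9 tested desaturase and elongase genes 1 fell, *CG31522*, which encodes a predicted elongase of very long chain fatty acids. It read 908 and 932 on the wild-type arrays, and in the mutant 166 and 231, with no overlap, a log2 change of -2.23 ± 0.19 (SE; limma adjusted p = 0.00138). A second, dim *CG31522* probe set read 25.2 and 81.6 on the wild-type arrays against 24.4 and 15.5 on the mutant arrays. The desaturase family gene *CG9747* was not tested because its mean over all arrays was too low, and is given after its values were seen. It read 92.2 and 120.4 on the wild-type arrays, while the mutant arrays gave 3.83 and 6.37, below the level where a fold can be read.

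In the group of *SREBP* partners and lipid-sensing regulators 0 of 8 passed in limma, with 1 at an unadjusted p under 0.05. The protease gene *S1P*, whose product cleaves SREBP in mammals, stood at 0.95 ± 0.32, and *sug*, a zinc finger gene of sugar sensing, at 1.04 ± 0.56 (SE). The value for *sug* was 0.28 without wild-type array 1, where it read 20.4 against 58.5 on the other, and 1.80 without wild-type array 2. Fatty acid activation and oxidation had 0 of 15 past limma's test and 0 at an unadjusted p under 0.05. The highest value there, 1.73 ± 0.80 (SE) for the thiolase gene *yip2*, rested on 1 array, with 187.7 and 30.7 in the mutant and 20.6 and 25.6 in wild type. The acyl-CoA oxidase gene *Acox3* stood at 0.37 ± 0.18 (SE).

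Of 16 tested genes of phospholipid and sphingolipid metabolism, 1 rose and 2 fell. *bbc*, which encodes a phosphotransferase of phosphatidylcholine and phosphatidylethanolamine synthesis, rose from 441 and 395 to 712 and 699 (log2 change 0.76 ± 0.15, SE; limma adjusted p = 0.0387). *bwa*, which encodes an alkaline ceramidase, fell from 395 and 443 to 203 and 202 (-1.05 ± 0.17, SE; limma adjusted p = 0.0185). *CLS*, the cardiolipin synthase gene, fell from 596 and 684 to 313 and 378 (-0.89 ± 0.17, SE; limma adjusted p = 0.0355). These 3 calls were lost when any 1 of the 4 arrays was left out and without the mean-variance trend, and *bbc* also with median centring (limma adjusted p = 0.0628), whereas *CG31522* kept its call in each of these fits. None of the 4 genes passed when dim probe sets were kept in the fit.

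**Figure D3:**
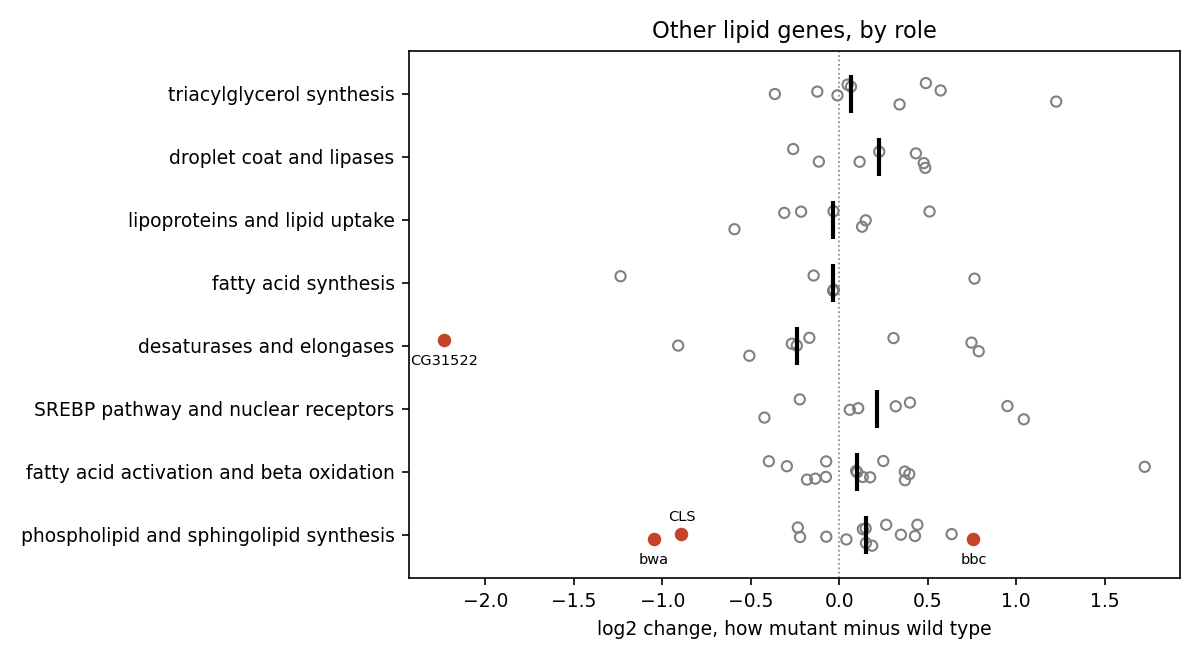
Log2 change (x axis, mutant minus wild type) of 76 tested lipid genes other than the 8 described, 1 circle per gene by its brightest probe set, by role (y axis); filled circles passed limma's test, and vertical bars are medians. Besides *CG31522* in the elongase group, the filled circles lie in phospholipid and sphingolipid metabolism.

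Markers of embryo stage and of lipid-handling tissues were read on the same arrays, and what part they have in the lipid gene differences was not tested. The summed signals given cover tested and dim markers alike. In whole embryos, fewer cells of a type and less RNA per cell cannot be told apart. Of 9 markers of the gastrulating embryo, *twi* and *sna* of the mesoderm among them, 0 passed in limma and 1 had an unadjusted p under 0.05, and their summed signal was 5371 to 5373 in wild type and 4768 to 5646 in the mutant. Of 8 tested genes of late epidermis and muscle 6 fell. The summed signal was 3354 to 3551 in wild type and 614 to 799 in the mutant. Among the 6, *Mlc1* (14.1 and 6.53 on the mutant arrays) and *up* (30.4 and 20.3) passed the filter only through the wild-type arrays. Of the 6, 4 passed without the mean-variance trend, 4 with a filter at the 60th percentile, and 0 when dim probe sets were kept. Of 4 tested maternal transcripts that are cleared early 2 rose, *dhd* and *pgc*, and the call for *pgc* was lost when any 1 array was left out. *pgc* was near the limit (limma adjusted p = 0.0497) and also had no call with quantile normalization, the robust fit or a filter at the 60th percentile. *pgc* read 35.7 and 36.8 on the wild-type arrays, below the filter limit, against 111.7 and 113.9 on the mutant arrays. It passed the filter only through the mutant arrays, so the filter favoured its count among the genes that rose. *dhd*, at 127 on both wild-type arrays, was above the filter limit in both groups. Neither *dhd* nor *pgc* passed when dim probe sets were kept. The other tested genes of the list, *smg* and *CycB*, had overlapping groups. *osk* and *bcd* were too dim to be tested and are given after their values were seen. *osk* read 24.8 and 7.09 on the wild-type arrays, and in the mutant 104.6 and 101.1. *bcd* read 36.4 and 38.2 against 37.5 and 17.2, with overlap. The summed signal of the maternal transcripts was 6867 to 7553 in wild type and 7107 to 8029.7 in the mutant, most of it from *CycB*.

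Of 4 tested fat body markers 0 passed in limma and 1 had an unadjusted p under 0.05, with a summed signal of 675 to 1088 in wild type and 944 to 1035 in the mutant. Of the mature fat body genes *Fbp1* read 30.4 and 30.4 on the wild-type arrays, and in the mutant 86.3 and 75.4, *Lsp2* read 107 and 119 against 105 and 86.2, and *Fbp2* was dim. *Fbp1* passed limma's test only in the fit without the mean-variance trend, among the settings run. Of 5 tested blood cell markers 1 fell, *Ppn*, and 2 had an unadjusted p under 0.05. The summed signal was 1907 to 2113 in wild type and 1557 to 1659 in the mutant, and *Hml* was dim, at 2.75 to 16.8. In this sum *Ppn* fell from 840 and 805 to 409 and 415. The other bright marker, *gcm*, overlapped, at 680 and 638 in wild type against 710 and 672. *Ppn* had no call without the mean-variance trend or when dim probe sets were kept. The call for *Ppn* was lost without either mutant array. *Pxn* was higher, at 91.2 and 20.8 on the wild-type arrays against 212 and 124 on the mutant arrays (log2 change 1.90 ± 0.65, SE; limma adjusted p = 0.199), and passed without wild-type array 1. *vkg*, too dim over all arrays to be tested, was lower, at 94.8 and 81.7 in wild type against 10.7 and 4.89. Of 7 tested amnioserosa markers 0 passed in limma, adjusted or at an unadjusted p under 0.05 (6295 to 7327 in wild type, 5731 to 6051 in the mutant). Of 3 tested genes of eggshell and yolk proteins 0 passed likewise (342 to 392 in wild type, 279.6 to 359 in the mutant). No marker was listed at exactly 0.

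**Figure D4:**
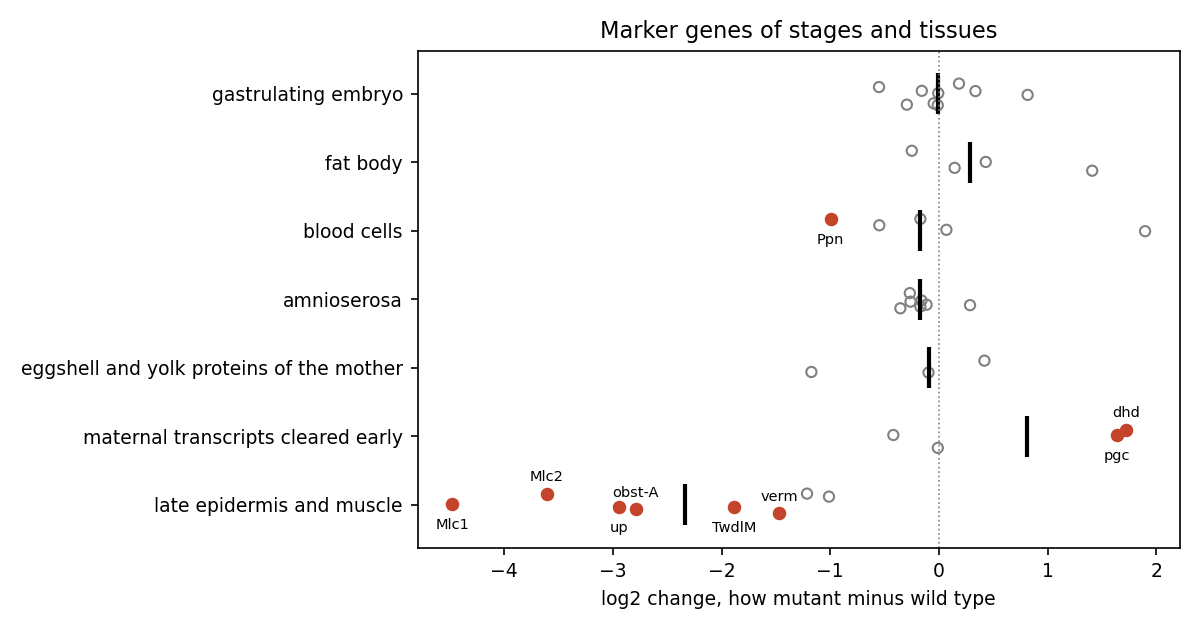
Log2 change (x axis, mutant minus wild type) of tested marker genes, 1 circle per gene, by stage or tissue (y axis); filled circles passed limma's test, and vertical bars are medians. The genes of late epidermis and muscle all lie below 0, with a median of -2.34, and *dhd* and *pgc* are the filled circles above 0.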

How the data were processed

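The deposited values are intensities on a linear scale, 1 for each probe set on an array, made by the authors with MAS5 per the submitters' processing notes. The MAS5 version and settings: not given in the sources used here, and detection calls were not used. Of 14010 probe sets, 44 controls were left out. Signals under the 5th percentile (3.38) were set to it, log2 was taken, and probe sets with a mean under the 40th percentile (39.5) were left out, which kept 8380. These were fitted with limma 3.58.1 in R 4.3.3 (lmFit and a trended eBayes, with 2 residual and 5.80 prior degrees of freedom), with Benjamini-Hochberg adjustment over all of them. This filter also drops genes bright in 1 group only. Steps were tested on simulated data with changes of known size. The fit recovered 0 of 67 changes of 1.5-fold, 28.4% of those of 2-fold and 74.2% of those of 4-fold. A gene that did not pass is therefore not shown to be unchanged.

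Of the gene probe sets, 12443 had 1 symbol, 327 several and 1196 none; 12394 were matched by Entrez ID to RefSeq's Release 6 table, which also gave the chromosome arms. A gene outside the 8 is represented by its brightest probe set.

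The 8 genes, the lists and the tests were chosen with earlier results of these data known. Named are all probe sets of the 8 genes, up to 4 passing genes per role list by size or else the 2 of smallest p, and the 5 profiles nearest *mdy*; others are marked where given. Alternatives were the replicate block, 2 scalings, other filters, 50 added, no trend, a robust fit, an adjusted p under 0.1, each probe set counted on its own, and leaving out each array.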

Additional observations from a re-analysis of the deposited data

How the results depend on the processing

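Of 8380 probe sets 255 passed; the count was 401 at an adjusted p under 0.1, 95 when the trend was dropped, 106 to 166 without 1 array (the lone array of a group is assumed to vary like the other group), and 0 when dim probe sets were kept (smallest limma adjusted p 0.0891), of which 1782 had an unadjusted p under 0.05. Of the pathway genes 4 passed; the count was 1 without the trend, 0 with no filter (25 of 99 at an unadjusted p under 0.05), 1 to 3 without 1 array (1 without wild-type array 1 or 2, 3 and 2 without mutant array 1 or 2, the 3 being *CG31522* with *Lpin* and *CG9747*, which are too dim in the fit of all arrays), 9 with the replicate block, and within 1.5 times of 4 under the other settings run. Without mutant array 1, *Lpin* and *CG9747* passed the filter only through their wild-type signals, so their calls there lend no support. The causes were not tested. The median log2 change of the 11 probe sets, 0.25, was 0.33 to 0.58 without 1 array and 0.17 to 0.24 under the other scalings and with 50 added. Without 1 array, the sign turned for *Desat1* (lowest -0.23), *SREBP* (-0.13), 151538_s_at of *apolpp* (-0.07) and 146782_at of *ACC* (highest 0.33), and *mdy* lay between 0.93 and 1.53 and *Lsd-2* between 1.59 and 1.69.

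Nothing in the labels ties a replicate number to a batch, litter or day. With the replicate block 825 probe sets and 9 pathway genes passed, adding *Men*, *Npc1a*, *Idh*, *Lip4* and the ceramide synthase gene *schlank*; among the markers *ush* and *Pxn* were added, and no call named in the text was lost. Between same-numbered arrays, the deviations from their group means had a Pearson r of 0.183.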
